A study of Drosophila melanogaster with 3 samples.

Results

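Chromatin immunoprecipitation followed by sequencing (ChIP-seq) was used to map where the protein CG16779 sits in the genome of Drosophila melanogaster prepupae, and the 10 genes described here are fat body genes for storage proteins and for lipid metabolism. They were chosen by name from the Ensembl annotation, and they are 10 of 13968 protein-coding genes on the chromosome arms. All 10 names matched. Storage genes are Lsp1alpha, Lsp1beta and Lsp2, grouped with the fat body protein genes Fbp1 and Fbp2, and lipid genes are apolpp, Lsd-1, Lsd-2, bmm and FASN1. Whole animals of a CG16779-MiMIC line, males and females together and of unknown age, carried an eGFP exon in an intron of CG16779, so the tagged protein came from the gene's own locus in a single fly line. Chromatin was sheared by sonication and enriched with an anti-GFP antibody. The single group holds 3 biological replicates, and no other genotype, stage or treatment was compared. Fat body is 1 tissue among many in a whole animal, so the lists cannot tell in which cells a region was bound.

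For each gene all summits in the gene or within 2 kb of it were taken from 5 lists of regions. These are the final set selected by the irreproducible discovery rate (IDR), a list from the 3 replicates pooled, and 1 list for each replicate. On the chromosome arms the IDR set held 4805 peaks and the other lists between 29982 and 30000 regions, which by their label hold background as well as peaks. Rank 1 is the region with the highest authors' score on the arms within its list, and scores are on a separate scale in each replicate list. The lowest pooled rank of an IDR peak was 4805, so the IDR set is the strongest part of the pooled list. Ranks in the IDR and pooled lists are therefore not separate support, and an IDR peak need not have a region in every replicate. Replicate 3 differed from the others in where its regions lay, with 9.87% on X against 18.0% in replicates 1 and 2, and it had no region at 13.2% of IDR peaks, against 1.10% in replicate 1 and 1.42% in replicate 2.

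The fat body is the insect organ that combines the tasks of liver and adipose tissue. In the last larval stage it secretes storage proteins of the hexamerin family into the blood, and at the onset of metamorphosis, under the hormone ecdysone, it takes them back as amino acid reserves for the pupa. It also keeps triglyceride in lipid droplets, whose coat proteins and lipases set how fast fat is released, and loads lipids onto lipoprotein particles for transport.

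Lipid genes held 12 of the 13 IDR summits of the 10 genes. The 13 summits form 10 stretches that do not overlap within a gene. Together the lipid genes also have the longer windows (gene plus 2 kb on each side). Per 10 kb of window the IDR set held 1.77 summits at lipid genes, 0.31 at storage genes and 0.44 at all protein-coding genes. The lipid value rests mainly on Lsd-2 and bmm, with 5.41 and 3.59 per 10 kb. Lsd-1 had 1.47, close to the 1.54 of the storage gene Lsp2, and apolpp and FASN1 had 0. An IDR summit lay in or within 2 kb of 4 of 10 members, beside 25.8% of all protein-coding genes by the same rule. The 4 were the storage gene Lsp2 and the lipid genes Lsd-1, Lsd-2 and bmm, with 1, 1, 6 and 5 summits. By class this is 1 of 5 storage genes, beside 19.3% of protein-coding genes in the length range of the storage genes (1.13 to 3.46 kb). It is 3 of 5 lipid genes, beside 34.5% of those in the length range of the lipid genes (2.81 to 16.3 kb). No test was made on these counts, because the genes were picked with results of these data known. In sets built from the strongest 4805 regions shared by replicate pairs, the count was 2 without replicate 1, 2 without replicate 2 and 3 without replicate 3. Lsd-2 and bmm were found in each of these sets, Lsd-1 only without replicate 3, and Lsp2 in none.

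The following sequences show the DNA at a selection of summits. They are read on the plus strand of dm6 (RefSeq) with 100 bases on each side of the summit. The exception is the Lsp2 window, which ends a base early, where a transcript of DEF8 begins. Capitals mark every match on either strand to 6 motifs, which may overlap. The letters of each motif are given with its counts after the sequences. Windows wholly or largely within untranslated regions, such as those at the Lsd-1 start and the Lsd-2 3' end, are not printed. Also left out are the IDR summits ranked 3778 at Lsd-2 and 2759, 3457 and 4103 at bmm. Of these only the summit ranked 2759 held a motif, 1 match to GAGAG. The only storage gene summit of the IDR set lay 177 bp past the end of Lsp2, at chr3L:12131946-12132145.

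Lsp2 3' side: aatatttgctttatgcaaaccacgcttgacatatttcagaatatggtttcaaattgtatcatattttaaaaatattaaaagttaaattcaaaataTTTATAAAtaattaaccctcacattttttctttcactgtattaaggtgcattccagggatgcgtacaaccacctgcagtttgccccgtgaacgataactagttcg

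The intronic summits of Lsd-2 ranked 690 and 1806 in the IDR set lay at chrX:15074838-15075038 and chrX:15075042-15075242, side by side.

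Lsd-2 intron, rank 690: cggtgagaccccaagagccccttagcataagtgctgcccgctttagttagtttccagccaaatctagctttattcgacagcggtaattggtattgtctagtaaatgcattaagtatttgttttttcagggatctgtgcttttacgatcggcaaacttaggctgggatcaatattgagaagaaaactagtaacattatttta
Lsd-2 intron, rank 1806: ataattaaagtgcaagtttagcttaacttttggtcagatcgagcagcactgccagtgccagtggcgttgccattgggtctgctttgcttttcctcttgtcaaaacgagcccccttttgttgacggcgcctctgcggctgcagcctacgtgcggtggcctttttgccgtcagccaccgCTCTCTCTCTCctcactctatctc

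For bmm, the strongest summit lay at chr3L:14781226-14781426, and the summit ranked 2902, 1 of those nearer to its start, at chr3L:14784921-14785121.

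bmm intron, rank 1920: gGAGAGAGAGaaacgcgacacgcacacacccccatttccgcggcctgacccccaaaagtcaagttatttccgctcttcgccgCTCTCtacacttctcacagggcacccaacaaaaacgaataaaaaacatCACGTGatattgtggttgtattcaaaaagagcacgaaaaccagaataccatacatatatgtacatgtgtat
bmm intron, rank 2902: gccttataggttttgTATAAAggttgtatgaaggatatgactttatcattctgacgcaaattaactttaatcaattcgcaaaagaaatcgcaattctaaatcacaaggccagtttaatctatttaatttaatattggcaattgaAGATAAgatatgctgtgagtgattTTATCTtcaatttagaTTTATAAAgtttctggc

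The strongest pooled summit of FASN1, outside the IDR set, lay upstream of the gene at chr2L:3056231-3056431.

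FASN1 upstream, pooled rank 5259: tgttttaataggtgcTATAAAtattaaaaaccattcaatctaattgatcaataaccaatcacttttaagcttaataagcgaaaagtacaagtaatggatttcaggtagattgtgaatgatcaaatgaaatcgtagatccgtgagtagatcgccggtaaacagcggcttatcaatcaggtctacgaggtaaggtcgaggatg

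GAGAG, the core of the element bound by GAGA factor, was found within 100 bp of 6 of the 13 IDR summits of members. Over all IDR peaks 33.5% of windows held it, and 27.0% of 23895 pooled regions away from IDR peaks. All 6 summits of members with GAGAG were at Lsd-2 or bmm, and those of Lsd-2 ranked 241 and 995 come from a single interval. The summits at Lsp2 and Lsd-1 had 0 matches. The Lsd-2 summit ranked 1806 had 4 overlapping matches in a single run, read on the other strand. The bmm summit ranked 1920 also had 4, of which 3 form the run at the left end of the window and 1, read on the other strand, stands apart from it. The bmm summit ranked 1920 also held the only E-box (CACGTG) among the 13, a motif in 2.04% of IDR windows and 2.72% of the other pooled windows. AGATAA, a site read by GATA factors, occurred at 1 of 13 summits, the bmm summit ranked 2902, where it matched in 2 places. It was in 12.9% of IDR windows and 10.9% of the other pooled windows. TATAAA, the core promoter box, was found at 4 of 13 (29.5% and 21.4%). AGGTCA, a half-site of nuclear receptors such as the ecdysone receptor, was at 0 of 13 (3.50% and 4.06%). Likewise TATCGATA, the DNA replication-related element, was at 0 of 13 (0.832% and 0.377%). GC content of the 13 windows ran from 28.4% to 54.2%, with a median of 37.8% over all IDR peaks, and was 31.3% at the Lsp2 summit.

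**Figure D1:**
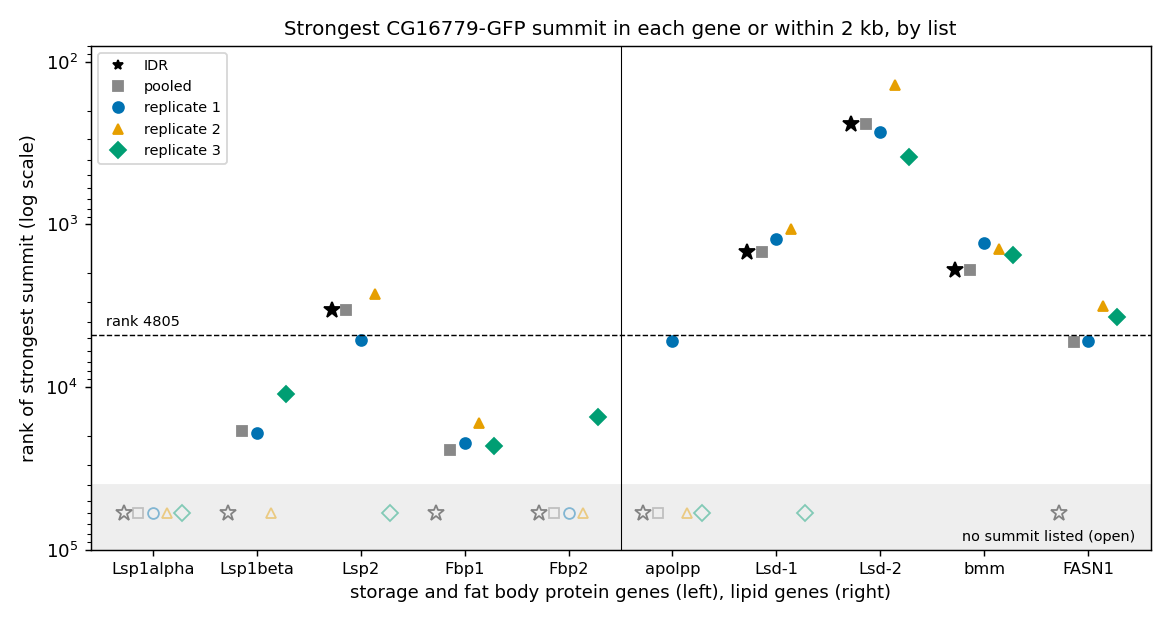
Rank of the strongest summit in each gene or within 2 kb (vertical log axis, rank 1 at the top), for the 10 genes on the horizontal axis, with a marker for each list and open markers where no summit was listed. Lsd-2 stood at rank 388 or better in every list, while Lsp1alpha was in none and no storage gene other than Lsp2 reached rank 4805.

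Lsp1alpha, Lsp1beta and Lsp2 encode the subunits of the larval serum proteins, hexamers that fill the blood of late larvae. Lsp1alpha (FBgn0002562, X from 12490291 to 12492982, plus strand) had 0 summits in all 5 lists. Its nearest region was 4219, 4270 and 14796 bp from the gene in replicates 1, 2 and 3, and its nearest IDR summit was 17896 bp away. Depth is unknown, so this says only that no region was listed there.

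Lsp1beta (FBgn0002563, 2L from 898500 to 901316, plus strand) had 1, 0 and 3 summits in replicates 1, 2 and 3, all weak. The strongest ranked 19331 in replicate 1 and 11044 in replicate 3. The pooled list held 4, at best rank 18676, and that summit fell in a coding exon 409 bp from an annotated start site. Replicate 2 is the library with none, and the summits of replicates 1 and 3 did not coincide. The small nuclear RNA gene snRNA:U1:21D and lncRNA:CR45348 are neighbours of the gene, and a pair of pooled summits lay upstream, 870 and 661 bp from the start of lncRNA:CR45348.

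Lsp2 (FBgn0002565, 3L from 12129393 to 12131869, plus strand) was the storage gene with an IDR peak. That peak (3L, 12131826 to 12132265) ranked 3388 of 4805, at a score of 221. Its summit was 2653 bp from the start of Lsp2 and 100 bp from that of the neighbouring gene DEF8, so by the nearest start site it belongs to DEF8. Overlapping regions ranked 5121 in replicate 1 and 2681 in replicate 2, with their summits 44 and 146 bp from the DEF8 start, and replicate 3 had none. The nearest region of replicate 3 lay 20013 bp from Lsp2. The remaining Lsp2 summit, in a coding exon that overlaps the antisense gene asRNA:CR11538, was listed in replicate 2 at rank 22570.

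Fbp1 encodes a receptor through which the fat body takes storage protein back up, and Fbp2 a protein related to alcohol dehydrogenase. Fbp1 (FBgn0000639, 3L from 14094589 to 14098053, minus strand) had 1, 1 and 3 summits in replicates 1, 2 and 3, at best ranks 22199, 16660 and 22946. Those of replicates 1 and 2 lay 1302 and 1279 bp past the 3' end, and the 3 of replicate 3 lay in coding exons. Fbp2 (FBgn0000640, 2L from 9426784 to 9427917, plus strand) had 0 summits in replicates 1 and 2 and 2 in replicate 3, at ranks 15271 and 27814. The stronger of these sat in a coding exon of the upstream gene Mco1, and the weaker 40 bp from an Fbp2 start. The nearest IDR summit to Fbp2 was 3358 bp away and thus outside the 2 kb limit. Of all members, the IDR summits nearest to that limit were those of Lsd-2, 1739 bp from the gene inside it and 3209 bp from the gene outside it.

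Among the lipid genes apolpp encodes apolipophorin, the core protein of the lipoprotein that carries lipids in the blood. It lies on the small chromosome 4 (FBgn0087002, from 1060969 to 1077273, plus strand), where the IDR set had 0 peaks. The pooled list had 2 regions on that chromosome, and replicates 1, 2 and 3 had 47, 3 and 8. At apolpp, 3 summits were listed in replicate 1 and 0 in replicates 2 and 3. The strongest ranked 5205, 72 bp from an internal start site of apolpp and within the 5' untranslated region of Zyx, which overlaps apolpp on the other strand. For apolpp the single library that listed regions is thus the library with the most regions on chromosome 4.

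Lsd-1 and Lsd-2 encode the 2 perilipins of the fly, which coat lipid droplets. Lsd-1 (FBgn0039114, 3R from 23763857 to 23766662, plus strand) had an IDR peak at its own promoter, between 23763729 and 23764168, at rank 1472 and score 374. The summit was 92 bp from a start site, in the 5' untranslated region. Regions there ranked 1230 in replicate 1 and 1062 in replicate 2, with summits 68 and 90 bp from a start. Replicate 3 had 0 summits at Lsd-1, and its nearest region was 5711 bp from the gene, at rank 67. Of the 1500 strongest IDR peaks, 9.47% had no region in replicate 3, against 0.0667% in replicate 1 and 0.333% in replicate 2. A further summit past the 3' end, near CG10375 in replicate 1 and CG10214 in replicate 2, ranked 11339 and 3796.

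Lsd-2 (FBgn0030608, X from 15069127 to 15076220, minus strand) had the strongest binding among the members in all 5 lists. Its best summit ranked 269, 139 and 388 in replicates 1, 2 and 3 and 241 in the IDR set, with a score of 943. In all, 10, 9 and 10 summits were listed in the replicates (mean 9.67 ± 0.577, SD, n = 3), of which 7, 6 and 6 were among the 4805 strongest. The IDR set held 6, in 4 stretches that do not overlap. Of all protein-coding genes 0.909% had 6 or more IDR summits by the same rule. That share covers genes of every length and was not taken by length range, although a longer window can hold more summits.

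The strongest Lsd-2 peak was at the 3' end of the gene. Its IDR interval, on X from 15069307 to 15070055, is listed with summits at 15069554 and 15069761, both in the 3' untranslated region and 6666 and 6459 bp from the Lsd-2 start. The nearest annotated start belongs to the downstream gene dob, which encodes a lipase related to brummer, at 2547 and 2754 bp. Of all IDR summits 39 of 4805 (0.812%) fell in a 3' untranslated region over 500 bp from every start site. The summit stood 6679, 6652 and 6676 bp from the Lsd-2 start in replicates 1, 2 and 3, nearly the same spot in all 3.

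Nearer to its start Lsd-2 had a cluster in its intron, with IDR ranks 690 and 1806 at 1282 and 1078 bp from the start. The stronger of these ranked 887, 584 and 846 in replicates 1, 2 and 3. The promoter summit, 39 bp from the start, was weaker, with IDR rank 2800 and score 252. Replicates 1, 2 and 3 ranked the overlapping regions 3545, 7256 and 1920, so replicate 2 is the library where the promoter fell outside its strongest 4805. The sixth IDR summit, rank 3778, lay 1739 bp upstream in an exon of lncRNA:CR44662. Restricting Lsd-2 to summits whose nearest protein-coding start is its own left 4 IDR summits and a best rank of 690.

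bmm encodes brummer, the fly counterpart of adipose triglyceride lipase, which releases fatty acids from the droplet. The gene (FBgn0036449, 3L from 14776496 to 14786412, minus strand) had 9, 11 and 11 summits in replicates 1, 2 and 3 (mean 10.3 ± 1.15, SD, n = 3) and 5 in the IDR set. Of protein-coding genes of every length 1.42% had 5 or more IDR summits, again a share not taken by length range. All 5 IDR summits of bmm were intronic, at 699, 1391, 4884, 5086 and 5958 bp from its start, with ranks 2759, 2902, 4103, 1920 and 3457. They lay in 4 stretches that do not overlap, since the regions ranked 1920 and 4103 share bases. For the summit 5958 bp from the bmm start the nearest start was that of mop, 4325 bp away.

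The replicates differed in which bmm region came first. Replicates 1 and 2 placed the region 5110 and 5059 bp from the start highest, at ranks 1310 and 1423, and replicate 3 the region 6010 bp from the start, at rank 1535. At 6010 bp replicate 1 had no overlapping region and replicate 2 ranked it 5747. The bmm promoter was listed in every replicate but stayed outside the IDR set. Its pooled summit, 37 bp from the start, ranked 5117, and summits within 119 bp of the start ranked 3803, 13278 and 3112 in replicates 1, 2 and 3. Replicates 1 and 3 thus placed the bmm promoter among their strongest 4805 and replicate 2 did not. The start of Tdrd3 lies on the other side of this stretch and had summits of its own at ranks 11459, 14122 and 7433.

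FASN1 encodes fatty acid synthase, which makes long-chain fatty acids from malonyl-CoA. The gene (FBgn0283427, 2L from 3056598 to 3068177, plus strand) had 5, 5 and 11 summits in replicates 1, 2 and 3 and 6 in the pooled list, with 0 in the IDR set. The strongest pooled summits ranked 5259 and 5894, at 267 bp upstream of the start and 47 bp inside the gene, just past the 4805 ranks of the IDR set. The best ranks in replicates 1, 2 and 3 were 5183, 3163 and 3698, at 17 bp from the start, 2072 bp from the nearest start in an intron, and 259 bp upstream. Each replicate thus led with another position. The nearest IDR summit to the gene was 18475 bp away.

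**Figure D2:**
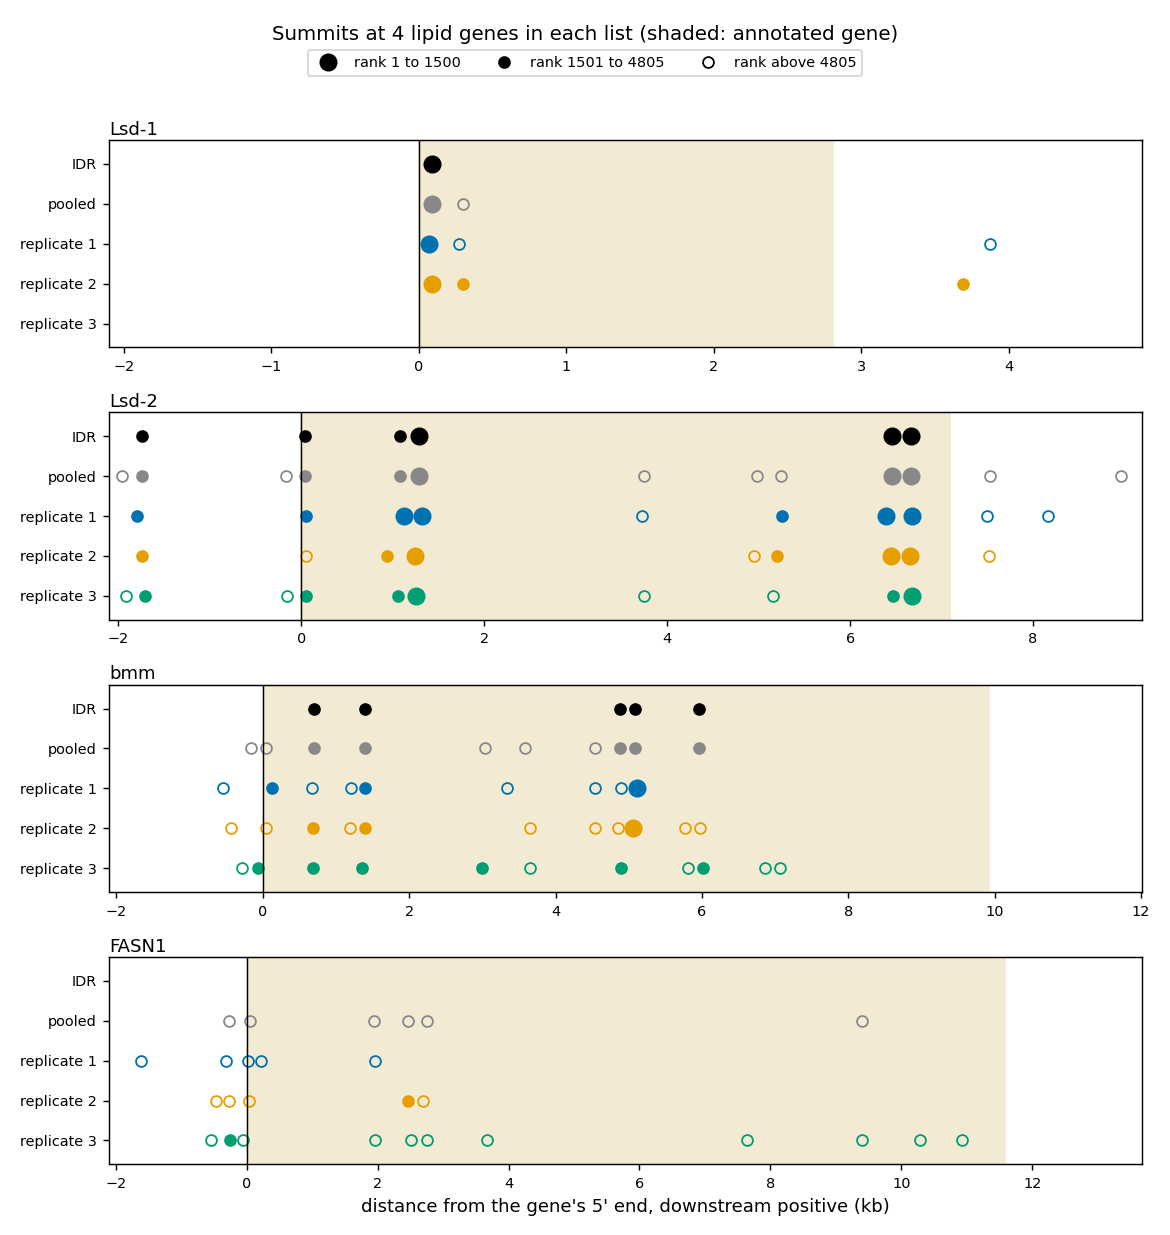
Summits at Lsd-1, Lsd-2, bmm and FASN1 along the distance in kb from the gene's 5' end (horizontal, downstream positive), with a row for each list, the annotated gene shaded, large filled markers for ranks up to 1500, small filled markers for ranks up to 4805 and open markers for weaker summits. Lsd-2 shows the same clusters in all 3 replicates, near its start and 6389 to 6679 bp downstream, whereas Lsd-1 has no marker in replicate 3 and FASN1 none in the IDR set.

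Promoters proper were bound at fewer members. An IDR summit lay within 500 bp of a start site in 2 of 10 members, Lsd-1 and Lsd-2, beside 13.0% of all protein-coding genes. No storage gene had one.

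**Figure D3:**
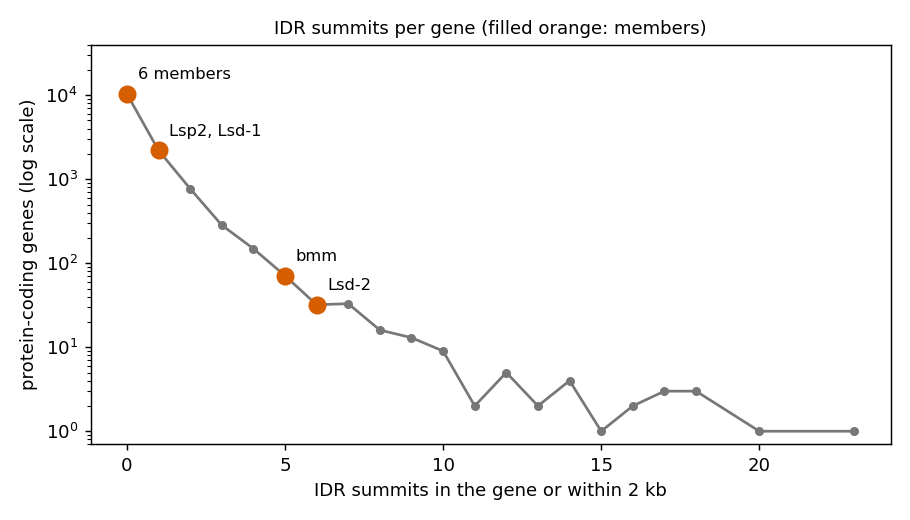
Number of protein-coding genes (vertical, log axis) by the number of IDR summits in the gene or within 2 kb (horizontal), with the counts that members have in orange. The 6 members without an IDR summit are among 10360 such genes, while Lsd-2 is 1 of 32 genes with 6.

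The single replicates had strong regions mainly at lipid genes. A region among the 4805 strongest lay at 3, 5 and 3 of 10 members in replicates 1, 2 and 3 (mean 3.67 ± 1.15, SD, n = 3), beside 27.7%, 29.7% and 23.7% of protein-coding genes in the same lists. Storage genes made up 0, 1 and 0 of these and lipid genes 3, 4 and 3. The lipid genes are mostly longer than the storage genes, and shares by length range were not taken in the replicate lists. Lsd-2 and bmm were among them in all 3 replicates, Lsd-1 in replicates 1 and 2, and FASN1 in replicates 2 and 3. When any listed region counted, 8, 6 and 6 members had one, beside 60.9%, 62.4% and 54.8% of protein-coding genes. In the pooled list 7 of 10 had one, 3 storage and 4 lipid genes, beside 55.5%.

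Summits were sparser over storage genes than over lipid genes in every replicate, with windows of gene plus 2 kb on each side summed within a class. Storage genes had 0.921, 0.921 and 2.46 summits per 10 kb in replicates 1, 2 and 3, and lipid genes 4.43, 4.14 and 4.73. The class values do not overlap, but those of single genes do. In replicate 3 the storage genes Lsp1beta and Fbp1 had 4.40 and 4.02 per 10 kb, while the lipid genes apolpp and Lsd-1 had 0. All protein-coding genes had 2.32, 2.49 and 2.17. The mean was 1.43 ± 0.886 for storage genes and 4.43 ± 0.295 for lipid genes (SD, n = 3), and storage minus lipid was -3.00 ± 0.647 summits per 10 kb. The SD is over replicates of the same genes and leaves out the spread between genes, and because the genes were chosen with earlier results known no test is read from the difference, which was negative in 3 of 3 replicates. The gap went to -4.69 without apolpp, the sparsest lipid gene in replicates 1 and 2, and to -1.70 with a flank of 5 kb. It was not taken without Lsd-2 or bmm, the densest lipid genes in each replicate. Lsd-2 had 9.01, 8.11 and 9.01 per 10 kb in replicates 1, 2 and 3, and bmm 6.47, 7.90 and 7.90. FASN1 had 3.21, 3.21 and 7.06, Lsd-1 4.41, 4.41 and 0, and apolpp 1.48, 0 and 0. Within the lipid class the density in single replicates ran from 0 at apolpp in replicates 2 and 3, and at Lsd-1 in replicate 3, to 9.01 at Lsd-2 in replicates 1 and 3. The lipid genes with 5 or more summits in each replicate were Lsd-2, bmm and FASN1.

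**Figure D4:**
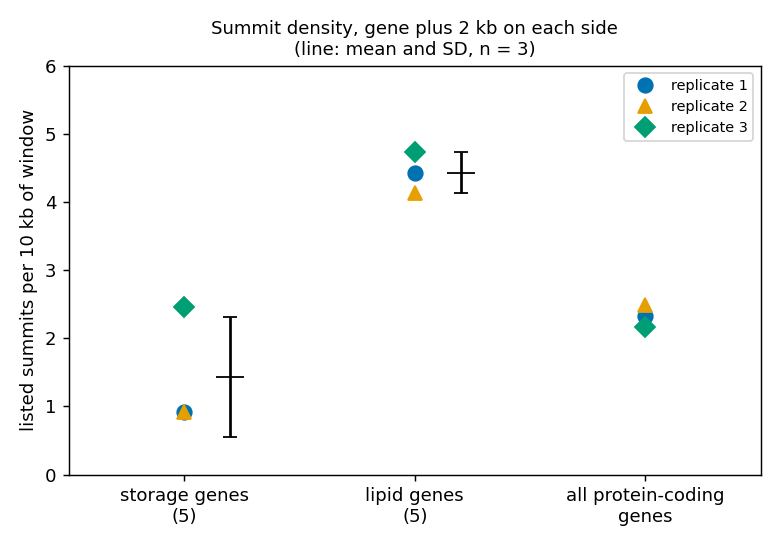
Listed summits per 10 kb (vertical) in each replicate for storage genes, lipid genes and all protein-coding genes, with the mean and SD of 3 replicates beside the member classes. The lipid genes lie between 4.14 and 4.73, above all storage values, and replicate 3 is the highest storage value at 2.46, with replicates 1 and 2 at the same place at 0.921.

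A wider list held 38 other storage, yolk and lipid genes. An IDR summit lay in or within 2 kb of 24 of 38, and within 500 bp of a start site of 18, where all protein-coding genes gave 25.8% and 13.0%. By group the promoter counts were 0 of 4 storage and yolk genes, 8 of 16 genes of fat synthesis, 7 of 9 of fat breakdown and 3 of 9 of lipid transport. These lists were written by hand with earlier results of these data known, and no test was made on them.

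In the storage and yolk group of the wider list, both IDR summits lay nearest to the start of another gene. Lsp1gamma, the third larval serum protein 1 subunit, had an IDR summit at rank 4682, downstream of the gene and 387 bp from the start of lncRNA:CR44510. The yolk protein gene Yp3 had one at rank 2326, again downstream, 295 bp from the start of rdgB. FASN2, which lies next to FASN1, had no IDR summit, and its best pooled rank, 5259, is the FASN1 summit between the genes. FASN3 had no IDR summit either, and its only replicate with a region was replicate 3, at rank 21816.

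The 3 fat breakdown genes with the strongest IDR summits carried them at their own promoters. All 3 ranked above the best promoter summit of a member, Lsd-1 at rank 1472. They were named as the strongest of 9 listed genes, 7 of which had an IDR summit, so this order follows partly from the choice. Mtpalpha and Mtpbeta encode the subunits of the mitochondrial trifunctional protein and Mcad a medium-chain acyl-CoA dehydrogenase, all of fatty acid oxidation. Their IDR ranks were 50, 147 and 284, with scores of 1591, 1128 and 869 and summits 399, 199 and 203 bp from their own starts. Mtpalpha ranked 36, 19 and 316 in replicates 1, 2 and 3, and Mtpbeta 64, 42 and 1688, both lowest in replicate 3. Mcad ranked 599, 181 and 246.

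In fat synthesis Lpin, the lipin gene, had its best IDR summit at rank 56, 261 bp from a start of its own, and ranked 108, 92 and 39 in the replicates. The summits with ranks 13 near Desat1, a fatty acid desaturase gene, and 439 near ATPCL, the ATP citrate lyase gene, lay downstream of these genes, 126 and 91 bp from the starts of CG18549 and CG8320. At ATPCL another IDR summit lay within 500 bp of its own start, and at Desat1 none did. For lipid transport the best IDR rank was 124, in an intron of the lipophorin receptor gene LpR2, 160 bp from the start of lncRNA:CR46102. fabp, a fatty acid binding protein gene, had rank 418, 422 bp from the start of sea, and a further IDR summit within 500 bp of a start of its own. Mtp, the microsomal triacylglycerol transfer protein gene, had rank 2172, 702 bp from the start of sky.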

How the data were processed

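The material was 3 biological replicates of 1 group, each its own biosample of the same fly line per the labels. The authors deposited lists of regions with a summit and a score per region, on a separate scale in each replicate list. These scores were used only to rank regions, apart from 1 alternative that kept IDR peaks above the median score. Per the file listings, each replicate list came from that replicate's alignments and 1 further input file, the pooled list from all 3, and the IDR set from the replicate and pooled lists. Aligner, peak caller and threshold for the IDR were not named in the labels or listings. Only the dm6 lists were used, and control libraries were not analysed here. Read depth is unknown.

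Coordinates are 1-based on dm6 (Release 6 genome, Ensembl 115 annotation without transposable elements), and 0 regions ran past an arm's end. Sequences are from the RefSeq copy of that assembly. Ranks leave out the mitochondrial genome. Motifs were sought by exact match within 100 bp of each summit. Counting was tested on simulated data. Python 3.11.15 and numpy 2.4.6 were used.

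The members, wider lists and motifs were chosen with earlier results of these data known. Named genes are the members, the genes at or nearest to their summits, relatives of members and the 3 genes of each wider list with the strongest IDR summit. Alternatives were other flanks, interval overlap, nearest starts, other numbers of strongest regions, stronger IDR peaks, other gene classes and leaving out each replicate.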

Additional observations from a re-analysis of the deposited data

How the results depend on the processing

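The counts of members are small, so single genes move them. The count of storage genes with an IDR summit, 1 as reported, was 0 in the gene body alone, 0 by nearest protein-coding start, 0 among IDR peaks above the median score, and 0 in each set that leaves out a replicate. It was 2 with a flank of 5 kb, where an IDR summit near Fbp2 came within reach. The count of lipid genes, 3 as reported, was 2 or 3 under all 10 alternatives, and that of all members ran from 2 to 3 when a replicate was left out. Those sets are smaller than the IDR set, with 2784, 2957 and 3477 regions without replicates 1, 2 and 3, and 16.6%, 16.4% and 22.5% of protein-coding genes had a summit of them. Storage minus lipid density stayed below 0 under all 8 alternatives, from -4.69 to -1.70 summits per 10 kb, and from -3.36 to -2.74 when a replicate was left out. None of these alternatives left out Lsd-2 or bmm, the lipid genes with the highest density in each replicate. How far the difference between the classes rests on Lsd-2 and bmm was thus not tested. The count of members with an IDR summit near a start site, 2 as reported, was 2 with a narrower promoter window and 3 with a wider one. Apart from the sets that leave out a replicate, shares of all protein-coding genes were not taken under these alternatives. Lists of fixed length and unknown depth limit what an absent region shows.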

Other observations

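Replicate 3 listed more summits in coding exons than the other libraries. Over the whole lists 11.3% of summits in replicate 3 lay in coding exons, against 4.37% in replicate 1 and 4.89% in replicate 2. At the storage genes 6 of the 8 summits in replicate 3 did, in Lsp1beta, Fbp1 and, upstream of Fbp2, in Mco1, against 1 of 3 in replicate 1 and 1 of 3 in replicate 2. At the lipid genes 5 of 32 summits in replicate 3 did, against 4 of 30 in replicate 1 and 1 of 28 in replicate 2, so replicates 1 and 3 were close there. Those of replicate 3 at the storage genes ranked between 13622 and 28399. Of the 13 IDR summits of members 0 lay in a coding exon, beside 1.14% of all IDR summits. The part of this difference between libraries in the higher storage density of replicate 3 was not tested.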
